A study of Mus musculus with 18 samples.

Results

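H19, Igf2, Peg3, Cdkn1c and Grb10 are imprinted genes that act on the growth of the mouse embryo and placenta. They were taken by their gene symbols from the deposited expression table, and all 5 were found among its 10965 genes. Most imprinted genes carry DNA methylation that was set in the egg or the sperm. The copy from either the mother or the father is read while the other is mostly silent. On distal chromosome 7, the control region between H19 and Igf2 is methylated on the paternal copy, which then expresses Igf2, and binds CTCF on the maternal copy, which then expresses H19. Such genes are mostly low in undifferentiated embryonic stem cells (ESCs), rise when the cells differentiate, and are known to be unstable in ESC culture. The values used here sum both copies of a gene, so the allele of origin was not measured.

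RNA was sequenced from control ESCs with the genotype Zeb2 fl/fl (Ctrl), in which Zeb2 is flanked by loxP sites, and from Zeb2 -/- ESCs (KO). The labels give the strain CD1 for both. Cells were collected in 2i+LIF, which holds ESCs in the ground state (d0), where 2i is PD0325901 (0.4 µM in the labels) with CHIR99021 (1 µM in the labels), at doses that the study's methods give otherwise, after 4 days as embryoid bodies in medium with 15% FBS (d4), and at d6, by which time they had been in N2B27 medium with retinoic acid at 500 nM since d4. Each of the 6 groups has 3 libraries, 18 in all. The methods describe KO lines made with Cre from CD1 control lines and a second derivation on a mixed background. The study describes 3 separate experiments at each stage. Which lines were sequenced, and whether the 3 libraries of a group came from 1 line, was not stated in the sources used here, so that a line and its genotype cannot be told apart, and a p-value measures the spread between these libraries.

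Zeb2 itself, the deleted gene, had 13 to 19 reads per library in Ctrl at d0, 173 to 193 at d4 and 730 to 949 at d6, and 1 to 3, 12 to 24 and 71 to 84 reads in KO, lower in every KO library of a day than in every Ctrl library. On the log2(TPM + 1) scale it was not called at d0 (-0.14, limma adjusted p = 0.360) and was called lower at d4 (-1.02) and d6 (-2.37). The reads on the genes of the table ranged from 9622622 to 15617675 per library. Pluripotency markers fitted the label at d0, with a summed level of 6231 to 6696 TPM over 10 genes in all 6 libraries. At d6 the label is neural progenitor for both genotypes, and the KO libraries went against it. The 12 neural markers summed to 748 to 795 TPM in Ctrl d6 and to 107 to 124 TPM in KO d6, and all 12 were lower in KO, with Dcx at 0 reads in KO d6, while 5 of 5 postimplantation epiblast markers were higher in KO. Of all genes, 34.3% were called lower and 17.9% higher in KO at d6. TPM, the share of transcripts at a fixed library total, divides reads by gene length and depth, so that levels can be compared between genes. Differences are on the scale of log2(TPM + 1), and a gene was called where limma's p, adjusted by Benjamini-Hochberg over all 10965 genes, was below 0.01. On this scale the median difference of all genes, KO minus Ctrl, was -0.07, -0.16 and -0.14 for the 3 days in order, and after median-ratio rescaling -0.03, 0.0015 and 0.01. In bulk RNA, fewer expressing cells and less RNA per cell cannot be told apart.

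Of the 5 genes, H19, Igf2 and Cdkn1c lie on distal chromosome 7, Peg3 on proximal chromosome 7 and Grb10 on chromosome 11, all on the minus strand of GRCm38. H19 (ENSMUSG00000000031) spans chr7:142575529-142578143 and Igf2 (ENSMUSG00000048583) spans chr7:142650766-142666816, with a gap of 72.6 kb between them. Cdkn1c (ENSMUSG00000037664) lies 792 kb further on, at chr7:143458339-143461050. Peg3 (ENSMUSG00000002265) is at chr7:6703892-6730431 and Grb10 (ENSMUSG00000020176) at chr11:11930508-12038683. H19 is a noncoding RNA that also serves as the precursor of miR-675, whose 2 mature forms lie wholly inside annotated H19 exons (5p at chr7:142577112-142577133, 3p at chr7:142577078-142577099, minus strand). They are shown because H19 is the gene with the widest range here and its transcript carries them. The RefSeq sequences of build GRCm38.p6 follow, 5′ to 3′, with the seed (bases 2 to 8) in capitals.
mmu-miR-675-5p: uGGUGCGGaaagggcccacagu
mmu-miR-675-3p: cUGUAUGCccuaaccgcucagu
Igf2 in turn hosts miR-483, whose mature forms lie in its span outside annotated exons (5p at chr7:142654968-142654989, 3p at chr7:142654932-142654952, minus strand).
mmu-miR-483-5p: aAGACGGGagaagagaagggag
mmu-miR-483-3p: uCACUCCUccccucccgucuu
The 4 seeds all differ, so no 2 of these miRNAs share a seed group. The levels of the miRNAs themselves were not analysed here.

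Zeb2 is a zinc-finger repressor known to bind paired CACCT motifs. All 5 genes differed between Zeb2 KO and Ctrl on at least 2 days, being lower in KO at d4 and d6. The bases before their transcription starts were therefore searched for single CACCT and its reverse complement AGGTG. The study searched longer stretches for paired motifs. It reported these overrepresented among genes higher in KO, and pointed to underrepresentation among genes lower in KO. RefSeq (GRCm38.p6) gave 7 promoter windows for 3 of the 5 genes, 4 for Igf2, 1 for Peg3 and 2 for Grb10, and the 250 bases before each start were used. CACCT or AGGTG was in 3 of the 7 windows and in 15100 of all 32851 windows of this length. The longer CACCTG or CAGGTG, each of which also contains the shorter motif, was in 0 of the 7 and in 17.2% of all windows. The 3 windows with a match are printed here because they carry it, in the direction of transcription, with the match in capitals. The Peg3 window is chr7:6730420-6730669, the Igf2 window is chr7:142658805-142659054 and lies inside annotated Igf2 exons, and the Grb10 window is chr11:12027972-12028221, inside the Grb10 gene but outside its annotated exons. All 3 are on the minus strand.
Peg3: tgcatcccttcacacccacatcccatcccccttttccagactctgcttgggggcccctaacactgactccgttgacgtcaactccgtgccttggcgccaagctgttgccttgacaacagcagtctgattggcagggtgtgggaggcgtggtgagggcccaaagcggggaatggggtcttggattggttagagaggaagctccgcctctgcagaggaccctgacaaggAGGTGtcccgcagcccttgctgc
Igf2: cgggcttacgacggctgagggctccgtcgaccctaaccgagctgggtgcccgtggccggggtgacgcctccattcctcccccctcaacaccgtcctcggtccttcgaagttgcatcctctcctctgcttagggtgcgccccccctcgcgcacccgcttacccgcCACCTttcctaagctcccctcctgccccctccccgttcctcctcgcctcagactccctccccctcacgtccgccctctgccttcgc
Grb10: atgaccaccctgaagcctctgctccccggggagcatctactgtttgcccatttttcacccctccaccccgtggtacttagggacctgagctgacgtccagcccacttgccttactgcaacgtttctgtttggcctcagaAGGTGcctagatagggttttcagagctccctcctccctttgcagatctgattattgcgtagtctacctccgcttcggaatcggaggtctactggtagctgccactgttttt
Each of the 3 windows held a single match. A match is a run of letters and says nothing of binding. The windows also differed in CG pairs, the bases that DNA methylation acts on in mammals. The Grb10 window at chr11:12037421-12037670 held 40 CG pairs, more than 98.7% of all windows, and the Grb10 window above held 8. The Igf2 window above held 22, and the other Igf2 windows held 1, 10 and 6. The Peg3 window held 8, against a median of 6 over all windows.

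The 5 genes rose in Ctrl cells as they left the ground state, and in KO cells all 5 were below Ctrl at d4 and d6. At d4, all 5 were called lower in KO, where 45.5% of all genes were called, 32.7% lower and 12.7% higher. At d6, all 5 were again called lower, where 52.3% of all genes were called, 34.3% lower and 17.9% higher. At d0, H19, Igf2 and Cdkn1c were called lower and Grb10 higher, where 27.0% of all genes were called, 16.4% lower and 10.6% higher, and Peg3 was not called. The same genes were those whose KO libraries lay wholly on one side of the Ctrl libraries. Of all genes, 31.5% lay wholly below and 19.9% above at d0 (51.5% in either direction), 45.7% below and 2194 of 10965 genes above at d4 (65.7%), and 41.1% and 22.7% at d6 (63.7%). Between the genotypes, the split over all genes depends on the scaling. The calls at d0, d4 and d6 numbered 1157, 1397 and 1967 higher and 1803, 3591 and 3764 lower, and after median-ratio rescaling 1365, 2300 and 2804 higher and 1551, 2335 and 2811 lower. After quantile normalization they were 1148, 2132 and 2805 higher and 1263, 2276 and 2947 lower. The calls of the 5 genes at d4 and d6 held in these and in the other alternatives tried.

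Within a genotype, all 5 genes were higher at d4 and at d6 than at d0. In Ctrl, 67.4% of all genes were called from d0 to d4, 45.1% higher and 22.3% lower, and 71.5% from d0 to d6, 45.8% higher and 25.8% lower. In KO the shares were 56.7% (35.8% higher, 20.9% lower) and 67.7% (40.3% higher, 27.4% lower). From d4 to d6 every one of the 5 but Peg3 rose in Ctrl (44.1% of all genes called, 22.6% higher and 21.5% lower), while in KO H19, Igf2 and Cdkn1c rose, Grb10 fell and Peg3 was not called (41.4% called, 21.5% higher and 19.9% lower).

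**Figure D1:**
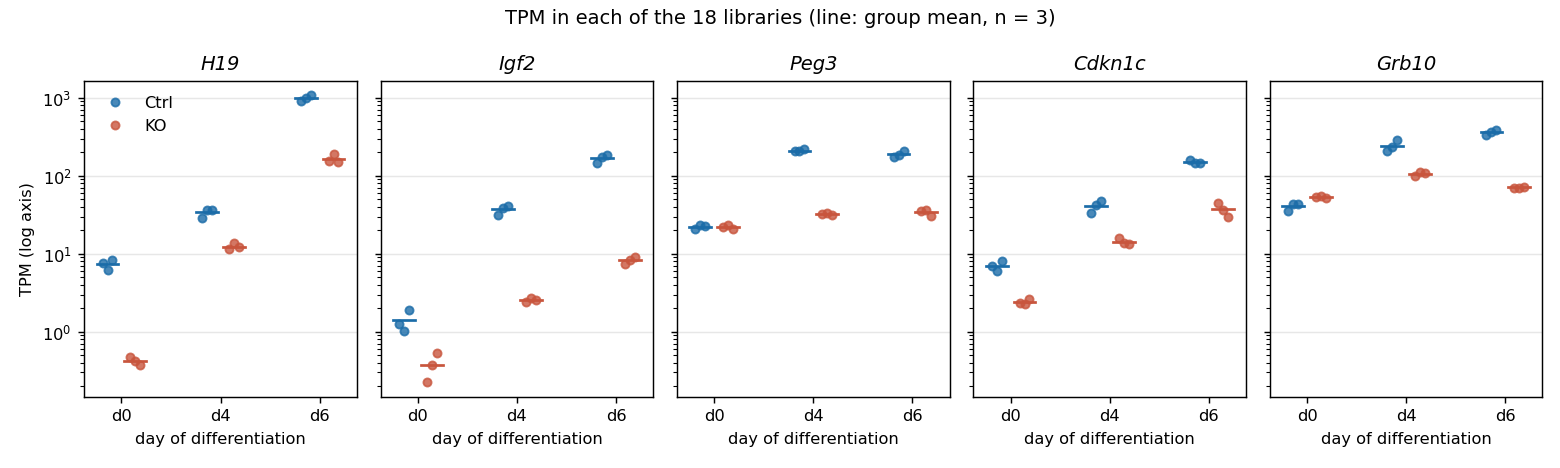
TPM of the 5 genes (vertical log axis) in each library at d0, d4 and d6, with Ctrl in blue, KO in red and a line at each group mean (n = 3). The genotypes do not overlap at d4 or d6 for any of the 5 genes, and at d0 they overlap for Peg3 alone, near 22.2 TPM.

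H19 makes a long noncoding RNA from the maternal copy and limits growth. The Ctrl libraries (replicates 1, 2 and 3) held 7.73, 6.15 and 8.24 TPM at d0, 29.2, 36.7 and 36.8 TPM at d4, and 901, 995 and 1077 TPM at d6. The KO libraries held 0.471, 0.418 and 0.371 TPM at d0, 11.4, 13.6 and 12.1 TPM at d4, and 154, 191 and 148.5 TPM at d6. All 3 KO libraries were below all 3 Ctrl libraries at each day. The KO level at d0 rests on 5 to 9 reads per library against 122 to 183 in Ctrl. The Ctrl mean was 17.5-fold the KO mean at d0, 2.77-fold at d4 and 6.02-fold at d6, so the genotypes were nearest to each other at d4. The difference, KO minus Ctrl on the log2 scale, was -2.55 ± 0.12 (SE, limma adjusted p = 9.98e-10) at d0, -1.39 ± 0.12 (limma adjusted p = 1.32e-07) at d4 and -2.59 ± 0.12 (limma adjusted p = 3.99e-11) at d6. The fold at d0 depends on the 1 read that the authors' values hold in addition for each gene, and is 19.9 without it. The size of the log2 difference at d0 depends on the processing well beyond its SE. It was -3.84 with a pseudocount of 0.1, -1.19 with a pseudocount of 5 and -4.17 with voom, and was called in each.

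H19 rose in both genotypes. From d0 to d6 its mean rose 134-fold in Ctrl and 392-fold in KO. On the log2(TPM + 1) scale the rise was 6.89 ± 0.12 in Ctrl and 6.86 ± 0.12 in KO, and the difference between the rises, -0.04 (95% interval -0.40 to 0.33), was not called (limma adjusted p = 0.877). That difference turned to 1.24 (limma adjusted p = 4.70e-05) with a pseudocount of 0.1 and became -1.37 (limma adjusted p = 9.66e-07) with a pseudocount of 5, so no direction can be given for it. Between d0 and d4 H19 rose more in KO than in Ctrl by 1.16 ± 0.17 (limma adjusted p = 5.20e-05), where the change of 36.1% of all genes differed, 22.5% lower in KO and 13.6% higher. From d4 to d6 it rose less in KO, with a difference of -1.19 ± 0.17 (limma adjusted p = 9.97e-05), where 13.4% of all genes differed, 6.29% lower and 7.10% higher. The difference from d0 to d4 was lost with a pseudocount of 5 (0.015, limma adjusted p = 0.944).

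Igf2 encodes the insulin-like growth factor that drives fetal growth and is read from the paternal copy. It was the gene of the 5 with the widest gap between genotypes at d4 and d6 on the log2(TPM + 1) scale. The Ctrl libraries held 1.26, 1.02 and 1.90 TPM at d0, 31.3, 38.5 and 41.4 TPM at d4, and 146, 173 and 185 TPM at d6. The KO libraries held 0.224, 0.375 and 0.528 TPM at d0, 2.43, 2.70 and 2.55 TPM at d4, and 7.33, 8.23 and 9.11 TPM at d6. Every KO library was below every Ctrl library of its day, and the KO libraries at d6 did not reach the Ctrl libraries at d4. The Ctrl mean was 3.71-fold the KO mean at d0, 14.5-fold at d4 and 20.4-fold at d6. The log2 difference was -0.79 ± 0.15 (limma adjusted p = 5.53e-04) at d0, -3.41 ± 0.15 (limma adjusted p = 6.34e-11) at d4 and -4.19 ± 0.15 (limma adjusted p = 1.40e-12) at d6. At d0 Igf2 had 9 to 20 reads per KO library and 47 to 79 per Ctrl library, and with a pseudocount of 5 the difference there was not called (-0.25, limma adjusted p = 0.0583).

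Igf2 rose 120-fold in Ctrl and 21.9-fold in KO from d0 to d6. Its rise from d0 to d4 was smaller in KO, with a difference of -2.62 ± 0.21 (limma adjusted p = 1.13e-07), and by d6 the difference in rise was -3.40 ± 0.21 (limma adjusted p = 2.29e-09), where 43.7% of all genes differed, 25.9% lower and 17.8% higher. From d4 to d6 the difference of -0.78 ± 0.21 was not called (limma adjusted p = 0.0129), and it was called with a pseudocount of 5 (-1.24, limma adjusted p = 5.95e-06) and after quantile normalization (-1.14, limma adjusted p = 0.00152), and without Ctrl d0 replicate 3 (-0.78, limma adjusted p = 0.00687).

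H19 and Igf2, which share enhancers, did not keep the same ratio. The ratio of H19 to Igf2 TPM was looked at after the values of both genes were known. In Ctrl it was 6.15, 6.00 and 4.33 at d0, 0.933, 0.952 and 0.891 at d4, and 6.16, 5.76 and 5.82 at d6, so that the genes stood at about the same level at d4 alone. In KO it was 2.11, 1.11 and 0.702 at d0, 4.71, 5.03 and 4.73 at d4, and 21.03, 23.3 and 16.3 at d6. The KO libraries lay below Ctrl at d0 and above Ctrl at d4 and d6, without overlap. The geometric mean of the ratio in Ctrl was 4.59-fold that in KO at d0, and in KO it was 5.21-fold that in Ctrl at d4 and 3.38-fold at d6. An exact two-sided permutation test of 3 against 3 libraries gave p = 0.1 at each day, the smallest p that this design allows. At d0 both genes had few reads in KO, and without the added read the 3 KO ratios were 2.08, 1.05 and 0.616.

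**Figure D2:**
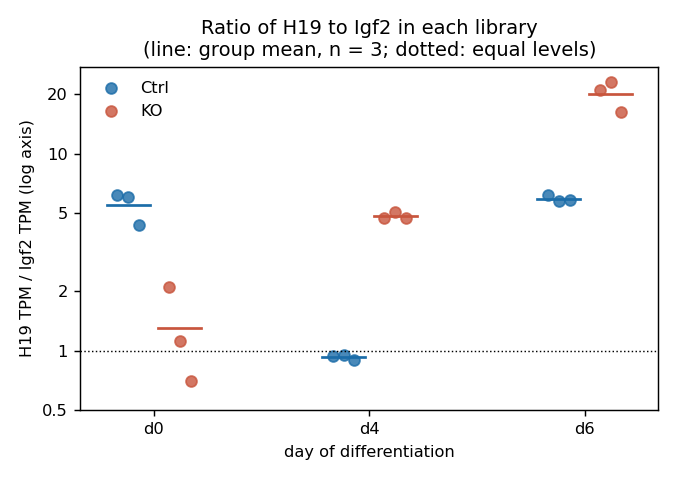
Ratio of H19 TPM to Igf2 TPM (vertical log axis) in each library by day, with Ctrl in blue, KO in red, lines at the group means (n = 3) and a dotted line where both genes are equal. At d4 the Ctrl libraries sit just under 1 and the KO libraries near 4.82, and at d6 the means are 5.91 in Ctrl and 20.2 in KO.

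Grb10 encodes an adaptor protein that binds the insulin and IGF1 receptors and dampens their signal, and is read from the maternal copy in most tissues and from the paternal copy in neurons. It was the 1 gene of the 5 that fell in KO between d4 and d6. The Ctrl libraries held 35.3, 43.4 and 43.8 TPM at d0, 209, 232 and 284 TPM at d4, and 338, 366 and 383 TPM at d6. The KO libraries held 53.3, 54.7 and 52.1 TPM at d0, 99.8, 111 and 108 TPM at d4, and 70.7, 69.3 and 72.8 TPM at d6. The KO libraries were thus above Ctrl at d0 and below Ctrl afterwards, with no overlap. The log2 difference was 0.38 ± 0.10 (limma adjusted p = 0.00499) at d0, -1.17 ± 0.10 (limma adjusted p = 7.68e-08) at d4 and -2.33 ± 0.10 (limma adjusted p = 8.97e-12) at d6. The call at d0 is near the threshold. It was lost in a fit of the d0 libraries alone (limma adjusted p = 0.0146), without Ctrl d0 replicate 1 (0.29, limma adjusted p = 0.0319) and without KO d0 replicate 1, 2 or 3 (0.37 to 0.40, limma adjusted p = 0.0122 to 0.0194).

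The Ctrl mean was 2.27-fold the KO mean at d4 and 5.11-fold at d6. In Ctrl, Grb10 rose 5.92-fold from d0 to d4 and by a further 0.59 ± 0.10 on the log2 scale to d6 (limma adjusted p = 7.68e-05). In KO it rose 1.99-fold to d4 and then fell by 0.58 ± 0.10 on the log2 scale (limma adjusted p = 1.16e-04). At d6 it was still above its level at d0 by 0.40 ± 0.10 (limma adjusted p = 0.00124), which was not called after median-ratio rescaling (0.23, limma adjusted p = 0.0301). The change differed between genotypes in each interval, by -1.55 ± 0.14 from d0 to d4 (limma adjusted p = 2.94e-07), -1.17 ± 0.14 from d4 to d6 (limma adjusted p = 1.31e-05) and -2.72 ± 0.14 from d0 to d6 (limma adjusted p = 2.28e-10).

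Cdkn1c encodes p57, an inhibitor of cyclin-dependent kinases that holds cells in G1, and is read from the maternal copy. It was lower in KO at each day and rose in both genotypes. The Ctrl libraries held 6.96, 5.96 and 8.10 TPM at d0, 33.1, 42.3 and 47.6 TPM at d4, and 158, 144 and 146 TPM at d6. The KO libraries held 2.33, 2.28 and 2.62 TPM at d0, 15.8, 13.7 and 13.5 TPM at d4, and 45.0, 36.5 and 29.8 TPM at d6. No KO library reached a Ctrl library of its day. The log2 difference was -1.22 ± 0.15 (limma adjusted p = 9.41e-06) at d0, -1.44 ± 0.15 (limma adjusted p = 7.64e-07) at d4 and -1.999 ± 0.15 (limma adjusted p = 8.18e-09) at d6. Without the pseudocount, the Ctrl mean TPM was 2.91-fold, 2.86-fold and 4.03-fold the KO mean. At d0 Cdkn1c had 20 to 26 reads per KO library and 58 to 81 per Ctrl library. The difference there was -0.69 with a pseudocount of 5 and -1.52 with voom, and was called in both. From d0 to d6 Cdkn1c rose 21.3-fold in Ctrl and 15.4-fold in KO. The difference between these rises, -0.78 ± 0.21 (limma adjusted p = 0.00471), was not called with a pseudocount of 0.1 (-0.53, limma adjusted p = 0.0509), after median-ratio rescaling (-0.63, limma adjusted p = 0.0175), with voom (-0.41, limma adjusted p = 0.401) or without any 1 of Ctrl d0 replicate 2, KO d0 replicate 3, Ctrl d6 replicate 1 and KO d6 replicate 3 (limma adjusted p = 0.0122 to 0.0148). From d0 to d4 the difference between genotypes in its rise was -0.22 (95% interval -0.66 to 0.22) and was not called (limma adjusted p = 0.406), and from d4 to d6 it was -0.56 ± 0.21, also not called (limma adjusted p = 0.0650).

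Peg3 encodes a large zinc-finger protein read from the paternal copy, with roles in growth and maternal behaviour. It was the 1 gene of the 5 with overlapping genotypes at d0. The Ctrl libraries held 20.7, 23.3 and 22.4 TPM at d0, 208, 206 and 220 TPM at d4, and 177, 185 and 211 TPM at d6. The KO libraries held 21.7, 23.5 and 20.7 TPM at d0, 32.5, 33.4 and 31.6 TPM at d4, and 35.5, 36.8 and 30.8 TPM at d6. The log2 difference at d0 was -0.01 (95% interval -0.18 to 0.16, limma adjusted p = 0.932). At d4 it was -2.66 ± 0.08 (limma adjusted p = 8.94e-13) and at d6 -2.44 ± 0.08 (limma adjusted p = 4.27e-13), with Ctrl means 6.50-fold and 5.56-fold the KO means. Peg3 rose 9.53-fold in Ctrl and 1.48-fold in KO from d0 to d4. The rise differed between genotypes by -2.65 ± 0.11 (limma adjusted p = 1.67e-10), and by -2.43 ± 0.11 up to d6 (limma adjusted p = 8.33e-11). From d4 to d6 no change was called in Ctrl (-0.15, 95% interval -0.32 to 0.02, limma adjusted p = 0.122) or in KO (0.07, 95% interval -0.09 to 0.24, limma adjusted p = 0.451).

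**Figure D3:**
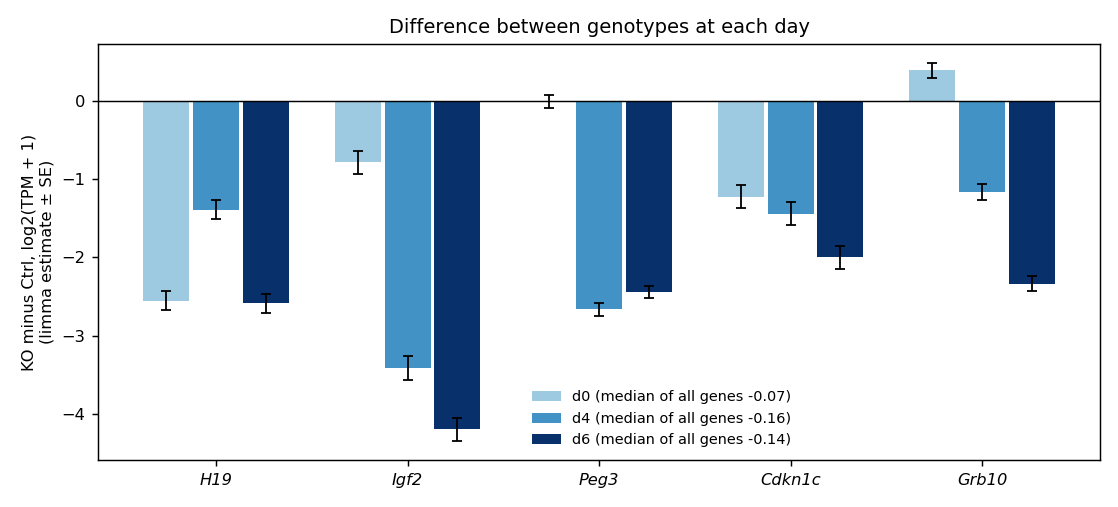
KO minus Ctrl on the log2(TPM + 1) scale for each of the 5 genes at d0, d4 and d6 (bars, limma estimates, error bars SE, 3 libraries per group). Igf2 reaches -4.19 at d6, Peg3 is at -0.01 on d0, -2.66 on d4 and -2.44 on d6, and Grb10 turns from 0.38 at d0 to -2.33 at d6. The median of all genes in the legend is -0.07, -0.16 and -0.14.

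The order of the 6 groups separated the genes. H19 rose in the order KO d0, Ctrl d0, KO d4, Ctrl d4, KO d6 and Ctrl d6, so that both genotypes of a later day stood above both of the day before. The closest step in that order, KO d4 over Ctrl d0, was 0.68 ± 0.12 (limma adjusted p = 1.16e-04) and was lost after quantile normalization (0.37, limma adjusted p = 0.0148). Igf2 and Cdkn1c shared another order, in which KO d6 stood below Ctrl d4. For Igf2 that gap was -2.04 ± 0.15 (limma adjusted p = 7.28e-09). Its step from Ctrl d0 up to KO d4, 0.59 ± 0.15 (limma adjusted p = 0.00234), was lost with a pseudocount of 5 (0.24), after quantile normalization (0.06) and without Ctrl d0 replicate 1 (0.55) or 2 (0.48). For Cdkn1c, at 37.1 ± 7.61 TPM in KO d6 and 41.0 ± 7.37 TPM in Ctrl d4 (SD, n = 3), the 2 neighbours did not differ beyond their spread (-0.14, 95% interval -0.46 to 0.17, limma adjusted p = 0.404). Over all genes, 55.7% were called between KO d6 and Ctrl d4, with 35.7% lower in KO d6, and 57.6% between KO d4 and Ctrl d0, 24.1% lower and 33.4% higher. For Peg3 the order was both d0 groups, which overlapped, KO d4, KO d6, Ctrl d6 and Ctrl d4, in which the d4 and d6 neighbours of a genotype did not differ beyond their spread, while KO d6 differed from Ctrl d4 by -2.59 ± 0.08 (limma adjusted p = 8.23e-13). For Grb10 it was Ctrl d0, KO d0, KO d6, KO d4, Ctrl d4 and Ctrl d6.

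Few of the annotated genes near the 5 were in the table. Within 250 kb of H19, 3 of 22 annotated genes were in it, which are Igf2, Igf2os and Ctsd. Igf2os, a noncoding RNA on the opposite strand that overlaps Igf2, averaged 3.87 TPM in Ctrl and 0.229 TPM in KO at d4 and 8.57 and 1.49 TPM at d6, with log2 differences of -1.97 (limma adjusted p = 3.00e-07) and -1.96 (limma adjusted p = 1.60e-07). The use of strand in counting was not stated, so reads from Igf2 and Igf2os cannot be told apart where they overlap, and the same holds for Cdkn1c and the annotated antisense gene Gm44732. Ctsd, which encodes a lysosomal protease and lies 187 kb from H19, was at 217 TPM in Ctrl and 261 TPM in KO at d4 (0.26, limma adjusted p = 0.00184) and was not called at d0 or d6. That call was lost without Ctrl d4 replicate 3 or KO d4 replicate 2 (0.23 in both). Near Peg3, Zim1, a maternally expressed zinc-finger gene 7.44 kb away, was the 1 of 23 annotated genes in the table. It averaged 11.6 TPM in Ctrl and 0.819 TPM in KO at d6, a log2 difference of -2.79 (limma adjusted p = 1.16e-09), and -1.17 (limma adjusted p = 3.72e-05) at d4.

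Near Cdkn1c, 4 of 25 annotated genes were in the table, and at d6 they split into Phlda2 and Cars, higher in KO, and Nap1l4 and Osbpl5, lower in KO as Cdkn1c was. Phlda2, which restrains placental growth and like Cdkn1c is maternally expressed, lies 40.5 kb away and was higher in KO at each day, by 0.71 (limma adjusted p = 0.00164) at d0, 0.83 (limma adjusted p = 2.92e-04) at d4 and 0.53 (limma adjusted p = 0.00712) at d6. The call at d0 was lost in the fit of d0 alone and without Ctrl d0 replicate 1 (0.63), and that at d6 in 7 of the 27 alternatives, which were the fit without a trend and the 6 that left out a d6 library (0.49 to 0.55). Cars, which encodes a cysteinyl-tRNA synthetase, was higher in KO at d4 (0.47) and d6 (0.54), while the histone chaperone gene Nap1l4 was lower at d6 (-0.50) and the lipid-transfer gene Osbpl5 was lower at d0 (-0.87, lost with a pseudocount of 5) and d6 (-0.92). Near Grb10, 4 of 10 annotated genes were in the table. Ddc, the aromatic amino acid decarboxylase gene 32.4 kb away, changed sign as Grb10 did, with 0.69 (limma adjusted p = 3.26e-04) at d0, -0.83 (limma adjusted p = 3.20e-05) at d4 and -1.15 (limma adjusted p = 6.27e-07) at d6. Fignl1, a DNA repair gene, was lower in KO at d6 (-0.68), Cobl, an actin nucleator gene, was higher at d6 (0.45), and 1700042O10Rik was not called at any day. The call of Cobl was lost in 5 of the 27 alternatives, with a pseudocount of 5 (0.31), in the fit of d6 alone, and without Ctrl d6 replicate 1 (0.37), Ctrl d6 replicate 3 (0.48) or KO d6 replicate 1 (0.28). The other genes of the table within 5 Mb of each of the 5 genes, 16 for Grb10 and 57 to 68 for the others, had median differences of -0.16 to 0.05 at d0, -0.24 to -0.03 at d4 and -0.23 to -0.02 at d6.

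The genes with the most similar profiles over the 18 libraries were found by the root-mean-square distance between log2(TPM + 1) values, each gene centred on its own mean. H19 had the largest distances of the 5. Its nearest genes were Krt19, a simple-epithelium keratin gene, at a distance of 0.90, the imprinted gene Peg10 at 1.15 and Gadd45g at 1.16. Igf2 was nearest to Rarb, a retinoic acid receptor gene (0.45), Col4a2, a basement membrane collagen gene (0.52), and Pmp22 (0.58). Rarb averaged 58.6 and 141 TPM in Ctrl at d4 and d6 and 4.20 and 6.34 TPM in KO. Peg3 was nearest to Mnx1, a motor neuron homeobox gene (0.21), the imprinted gene Dlk1 (0.24) and Zfp521 (0.27). Cdkn1c was nearest to Bmp1 (0.31), Gpr153 (0.34) and Cpm (0.36), and Grb10 to Fzd8, a Wnt receptor gene, Zfp362 and Gprin1 (0.27 each).

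The insulin-like growth factor axis carries the signal of Igf2 through Igf1r, clears Igf2 through Igf2r, and holds it in the medium with binding proteins. The list used here also holds Igf2bp1, Igf2bp2 and Igf2bp3, whose proteins bind mRNA and have none of these roles. Of 20 listed genes 13 were in the table, and 5, 7 and 8 of them were lower in KO at d0, d4 and d6, with 0, 2 and 2 higher. Their median difference was -0.18, -0.35 and -0.39, against -0.07, -0.16 and -0.14 for all genes. The shares of all genes called lower on these days were 16.4%, 32.7% and 34.3%, and those called higher were 10.6%, 12.7% and 17.9%. After median-ratio rescaling 5 of the 13 were lower at each day and 0, 3 and 3 higher. With that rescaling, 1551, 2335 and 2811 of all 10965 genes were lower and 1365, 2300 and 2804 higher. Among the listed genes called lower before rescaling were Igf2bp1 and Igf2bp2 at d0 and Igf2bp1 and Igf2bp3 at d4. At d6 Igf2bp1, Igf2bp2 and Igf2bp3 were all called lower (-0.31, -0.88 and -0.85). The largest called differences at d6 were those of Igfbp5, Igfbp3 and Irs4. Igfbp5, which binds Igf2, averaged 96.7 TPM in Ctrl and 9.16 TPM in KO at d4 and 73.4 and 2.58 TPM at d6, a log2 difference of -4.38 ± 0.15 at d6 (limma). Igfbp3, another binding protein gene, went the other way, at 45.8 TPM in Ctrl and 204 TPM in KO at d6 (2.13 ± 0.07). Irs4, which encodes a substrate of the insulin receptor, was at 1.49 TPM in Ctrl and 9.22 TPM in KO at d6 (2.04 ± 0.16). Of the receptors, which were chosen for naming by their role, Igf2r was lower in KO by -1.06, -0.76 and -0.39 at the 3 days in order, and the last of these calls was lost after median-ratio rescaling (-0.23, limma adjusted p = 0.0176). Igf1r differed by -0.58, -0.53 and -0.41. Its call at d4 was lost after median-ratio rescaling (-0.36, limma adjusted p = 0.0127) and without Ctrl d4 replicate 3 (-0.46) or KO d4 replicate 1 (-0.43). Its call at d6 was lost in 8 of the 27 alternatives, after median-ratio rescaling (-0.25, limma adjusted p = 0.0611) and quantile normalization (-0.33), in the fit of d6 alone, and without Ctrl d6 replicate 2 or 3 or any 1 of the KO d6 libraries (-0.45 to -0.29). Insr was lower at d4 (-0.59) and was not called at d0 or d6.

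Of the family and partners of Grb10, 3 of 5 listed genes were in the table, with 1, 2 and 2 lower in KO at d0, d4 and d6 and 0, 0 and 1 higher. Over all genes, 16.4%, 32.7% and 34.3% were called lower on these days and 10.6%, 12.7% and 17.9% higher. At d6, Grb7, which encodes a related adaptor, was higher in KO (0.61 ± 0.14), and Grb2 (-0.37 ± 0.06) and Gigyf1 (-0.42 ± 0.13) were lower, although the call of Gigyf1 was lost in 18 of the 27 alternatives. The other CDK inhibitor genes, 6 of 6 in the table, held 0, 4 and 3 lower in KO at d0, d4 and d6, and 1 higher at each day, and after median-ratio rescaling 0, 4 and 2 lower and 1, 2 and 2 higher. At d4 the largest were Cdkn2c (-1.29 ± 0.19), Cdkn2a (-1.02 ± 0.11) and Cdkn2d (-0.68 ± 0.13), against -1.44 ± 0.15 for Cdkn1c. Over the alternatives Cdkn2c ranged from -1.61 to -0.71 and Cdkn1c from -1.58 to -1.24, so no order can be given between Cdkn2c and Cdkn1c.

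Other imprinted genes were more often lower than higher in KO at d4 and d6, and more often higher at d0. Of 66 imprinted genes listed besides the 5, 36 were in the table, counted once each. At d0, 6 (16.7%) were lower and 10 (27.8%) higher in KO. Among these 10 were Meg3, Rian and Mirg, neighbours in the Dlk1 cluster on chromosome 12. Of the genes of chromosome 12, 54.5% were called at d0, against 27.0% of all genes. At d4, 20 (55.6%) were lower and 3 (8.33%) higher, and at d6, 21 (58.3%) were lower and 7 (19.4%) higher. The matching shares over all genes are 16.4% and 10.6% at d0, 32.7% and 12.7% at d4, and 34.3% and 17.9% at d6. The median of the 36 was 0.09, -0.58 and -0.46. After median-ratio rescaling the counts were 5 lower and 11 higher at d0, 18 and 5 at d4 and 17 and 8 at d6, with medians of 0.14, -0.46 and -0.31. After quantile normalization they were 4 and 11, 15 and 6 and 17 and 8, with medians of 0.15, -0.39 and -0.33. Some of the listed genes are imprinted in certain tissues only.

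The paternally expressed genes outside the clusters of the 5 had 2, 13 and 12 of 18 lower in KO at d0, d4 and d6, and 3, 1 and 3 higher, and over all alternatives 9 to 13 were lower at d4 and 9 to 12 at d6. The largest at d6 were Peg12, a gene of the Prader-Willi region (23.6 TPM in Ctrl and 1.59 TPM in KO, -3.24 ± 0.12), Nnat, which encodes the membrane protein neuronatin (82.0 and 8.31 TPM, -3.16 ± 0.16), and Dlk1, a Notch ligand relative that restrains adipocyte formation (10.3 and 0.783 TPM, -2.66 ± 0.15). Chosen after their values were seen, the growth regulator Plagl1 was higher in KO at d0 (0.64 ± 0.15) and lower at d4 (-0.69 ± 0.15) and d6 (-2.51 ± 0.15). Its call at d0 was lost with a pseudocount of 0.1 and without Ctrl d0 replicate 2 or 3 or KO d0 replicate 2 (0.55 to 0.66), and that at d4 after quantile normalization (-0.36) and in the fit of d4 alone. Chosen in the same way, Mest went from -1.41 ± 0.11 at d4 to -2.54 ± 0.11 at d6. The maternally expressed genes held 1, 4 and 4 of 9 lower and 5, 0 and 2 higher, and 2 were lower at d6 after median-ratio rescaling, after quantile normalization and in the fit of d6 alone. The largest at d6 were Atp10a (1.38 ± 0.10), Ppp1r9a (-0.62 ± 0.15) and H13 (-0.60 ± 0.11). The call of Ppp1r9a was lost after quantile normalization (-0.34), in the fit of d6 alone and without KO d6 replicate 3 (-0.47). Chosen after their values were seen, Meg3, Rian and Mirg, noncoding RNAs of the Dlk1 cluster on chromosome 12, were higher in KO at d0 by 1.82 ± 0.20, 1.65 ± 0.11 and 1.396 ± 0.19. At d4 Meg3 was called lower (-0.77 ± 0.20, lost in 5 of the 27 alternatives), and Rian and Mirg were not called. At d6 Rian was called higher (0.38 ± 0.11, lost in 14 of the 27), and Meg3 and Mirg were not called. The part of chromosome 12 in the values of Meg3, Rian and Mirg was not tested. Its 440 genes in the table had a median difference of -0.18 at both d4 and d6, against -0.16 and -0.14 for all genes. At d0 their median difference was 0.36, against -0.07 for all genes. For chromosomes 7 and 11, which hold the 5 genes, that median was -0.10 and -0.11 at d0. Of the imprinted cluster of distal chromosome 7, 6 of 14 listed genes were in the table, with 3, 1 and 3 lower and 1, 2 and 1 higher (after median-ratio rescaling 2, 0 and 3 lower and 1, 2 and 2 higher), and the largest at d6 were Osbpl5, Tssc4 (-0.75 ± 0.09) and Phlda2. The Peg3 domain was left with Zim1, and the Grb10 domain with Ddc and Cobl.

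Of 12 listed genes that maintain imprints, 11 were in the table, with 3, 3 and 2 lower in KO at d0, d4 and d6 (16.4%, 32.7% and 34.3% of all genes) and 1, 0 and 2 higher (10.6%, 12.7% and 17.9%), and a median of 0.08, -0.16 and -0.09, which after median-ratio rescaling became 0.13, 0.02 and 0.07. At d6 the largest were Zfp57, whose protein protects imprints from demethylation (0.69 ± 0.16, 49.2 TPM in Ctrl and 82.3 TPM in KO, lost in the fit of d6 alone and, at 0.50, without KO d6 replicate 1), Dnmt1, the maintenance methyltransferase gene (-0.67 ± 0.05, 408 and 255 TPM), and Ehmt2, a histone methyltransferase gene (-0.63 ± 0.07).

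Markers of other cell types also differed between the genotypes, in both directions. Of all genes, 16.4%, 32.7% and 34.3% were called lower in KO at d0, d4 and d6, and 10.6%, 12.7% and 17.9% higher. Visceral and definitive endoderm markers, 11 of 14 in the table, summed to 233 to 383 TPM in Ctrl d6 and 63.8 to 103 TPM in KO d6, where 10 of 11 were lower in KO, led by Afp (-3.21 ± 0.24), Apoa1 (-2.63 ± 0.33) and Gata6 (-2.30 ± 0.18). With only genes of a mean TPM of at least 10 tested, 2 were lower. At d4, 4 of these markers were lower and 1 higher. The higher one was Ttr, at 0.284 TPM in Ctrl and 1.16 TPM in KO, and its call was lost in 16 of 26 alternatives. On that day the markers summed to 32.9 to 34.8 TPM in Ctrl and 14.5 to 27.0 TPM in KO. Their median difference was -0.18 against -0.16 for all genes. At d0 they summed to 7.01 to 8.21 TPM in Ctrl and 5.33 to 6.67 TPM in KO, with Ttr at 0 reads, and 0 of the 11 were called, or 2 lower with a pseudocount of 0.1 and 1 in the fit of d0 alone. Mesoderm markers, 7 of 14, summed to 206 to 248 TPM in Ctrl d4 and 14.7 to 18.6 TPM in KO d4, of which Meox1 alone was 208 TPM in Ctrl and 0.917 TPM in KO. At d6 they summed to 223 to 294 and 100 to 205 TPM, with 4 lower (1 to 5 over the alternatives) and 2 higher, among them Meox1 (-6.47 ± 0.20), Pdgfra (-1.91 ± 0.16) and Eomes (1.86 ± 0.22). Most of the KO sum at d6 was Acta2, also higher in KO, at 54.1 ± 26.4 TPM in Ctrl and 131 ± 61.2 TPM in KO (SD). Trophectoderm markers, 8 of 10, overlapped in their sum at d4 (178 to 201 TPM in Ctrl, 174 to 204 TPM in KO), where 4 were lower, and at d6 (1085 to 1667 TPM in Ctrl, 1052 to 2052 TPM in KO), which Krt18 and Krt8 made up for the most part, and 5 of 8 were lower, led by Krt7 (-2.03 ± 0.19), Gata2 (-1.71 ± 0.24) and Gata3 (-0.87 ± 0.20). The count of 5 became 3 with a pseudocount of 0.1 and after quantile normalization, both of which lost Gata3 (-1.03 and -0.50), and 1 with a mean TPM of at least 10. Of the neural markers lower in KO at d6, Cdh2 differed by -4.87 ± 0.10 and Irx3 by -4.31 ± 0.17. The postimplantation epiblast markers that differed most were Fgf5 (4.89 ± 0.21), Otx2 (4.00 ± 0.16) and Pou3f1 (3.06 ± 0.15), and of the pluripotency markers Pou5f1 (2.68 ± 0.10), Nanog (1.42 ± 0.12) and Nr0b1 (0.97 ± 0.13). The pluripotency list of 10 was mixed on that day. In it, 5 genes had a call above Ctrl, 4 had no call, and Klf4 was below Ctrl (-0.83 ± 0.13). The part of cell composition in the differences of the 5 genes at d4 and d6 was not tested.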

How the data were processed

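The authors deposited 1 table of gene expression in TPM, with a column for each of the 18 libraries and 11046 entries for 10965 genes. The first entry of each of 81 repeated identifiers was kept. Per the labels and the methods, TopHat2 2.0.13 mapped the reads to GRCm38 and featureCounts 1.4.6 gave gene counts, and the authors then converted them to TPM, removed short noncoding, low and least variable genes, and used DESeq2 for their own tests. The table's 3 columns of variability scores per gene were not used. Whole reads were recovered from the TPM of all 10965 genes (within 1e-06 of a whole number, 1 read added to each gene by the authors) and were used to give the depth and for voom as an alternative. A gene that passed the authors' filter may have done so through the group where it is high.

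Genes were compared with limma 3.58.1 (R 4.3.3, trend) on log2(TPM + 1) with a mean for each of the 6 groups. SE and 95% intervals are those of the fit. The genes and lists were chosen with earlier results of these data known. Named are the 5 genes, up to 3 genes of each list with the largest called difference at the day with most calls (the later day in a tie), the 3 nearest profiles and the genes within 250 kb. A gene that this rule names among the neural markers is not reported here. Positions came from GENCODE M21. Tables and figures used Python 3.11.15, pandas 2.3.3, scipy 1.17.1 and matplotlib 3.10.9. The steps were tested on simulated data.

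The alternatives were pseudocounts of 0.1 and 5, a mean TPM of at least 10, median-ratio rescaling, quantile normalization, no trend, only the day or genotype compared, a replicate block, voom and leaving out each library. The ratio without the added read was chosen after seeing the data.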

Additional observations from a re-analysis of the deposited data

Results flagged for a closer look

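The change over time of the 5 genes differed between the genotypes in 10 of 15 tests of the difference itself (KO change minus Ctrl change on the log2(TPM + 1) scale, limma, adjusted over all 10965 genes). For H19 the difference was 1.16 from d0 to d4 (adjusted p = 5.20e-05) and -1.19 from d4 to d6 (adjusted p = 9.97e-05). For Igf2 it was -2.62 from d0 to d4 (adjusted p = 1.13e-07) and -3.40 from d0 to d6 (adjusted p = 2.29e-09). For Peg3 it was -2.65 from d0 to d4 (adjusted p = 1.67e-10) and -2.43 from d0 to d6 (adjusted p = 8.33e-11). For Cdkn1c it was -0.78 from d0 to d6 (adjusted p = 0.00471). For Grb10 it was -1.55 from d0 to d4 (adjusted p = 2.94e-07), -2.72 from d0 to d6 (adjusted p = 2.28e-10) and -1.17 from d4 to d6 (adjusted p = 1.31e-05). Over all genes 36.1%, 43.7% and 13.4% differed in the same 3 intervals.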

How the results depend on the processing

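Of 405 alternative values of the 15 differences between genotypes (5 genes, 3 days), 394 kept their direction and their side of the threshold, as did 809 of 810 for the changes within a genotype, 252 of 260 between KO and the Ctrl of the day before and 369 of 390 for the differences of change. The exceptions are given here or beside the result they touch, and their cause was not tested. Peg3 at d0 turned to 0.033 (median-ratio rescaling), 0.016 (quantile normalization) and 0.035 (voom), and ranged from -0.057 to 0.028 when each library was left out. Grb10 at d0 kept 0.38 in the fit of d0 alone but was not called, and ranged from 0.29 to 0.44 with libraries left out. Igf2 at d0 was -0.25 with a pseudocount of 5. The rise of Grb10 in KO from d0 to d6 was 0.23 after median-ratio rescaling. Cdkn1c in KO d6 against Ctrl d4 turned to 0.018, 0.013 and 0.016 (median-ratio, quantile, voom).

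Among the differences of change, that of H19 from d0 to d4 was 0.015 with a pseudocount of 5, and from d0 to d6 it was 1.24 and -1.37 with pseudocounts of 0.1 and 5, 0.19 after median-ratio rescaling and 1.67 with voom, and -0.15 to 0.074 with libraries left out. That of Cdkn1c from d0 to d4 was 0.13 with voom, and from d0 to d6 -0.53 with a pseudocount of 0.1, -0.63 after median-ratio rescaling and -0.41 with voom, none of them called, and -0.92 to -0.63 with libraries left out. That of Igf2 from d4 to d6 was called with a pseudocount of 5 (-1.24), after quantile normalization (-1.14) and without Ctrl d0 replicate 3, with a range of -0.88 to -0.67 over left-out libraries. With the replicate number as a block it was also called (-0.78, limma adjusted p = 0.00314), and the block changed no other call of the 5 genes. The numbers were not taken as pairs, since the 3 pairs numbered 3 correlated at or under 0.1 and no label says that a number marks a batch. The other 6 of 9 same-numbered pairs exceeded 0.1 (range of all, -0.08 to 0.23, against -0.22 to 0.08 for differently numbered libraries), a hint from the data, not the design. The block gave 2780, 4853 and 5629 calls over all genes against 2960, 4988 and 5731. Low reads limit H19, Igf2 and Cdkn1c in KO at d0.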
